A study of Rattus norvegicus with 9 samples.

Results

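The genes described here encode the constitutive subunits of the proteasome, the protease complex that degrades ubiquitin-tagged proteins in every cell. The list holds 34 genes, 14 of the core particle (Psma1 to Psma7 and Psmb1 to Psmb7) and 20 named for the regulatory particle (Psmc1 to Psmc6 and Psmd1 to Psmd14). Array probes were assigned to them through the RefSeq accession of the probe, and the brightest probe stood for its gene. A probe was found for 33 of the 34 genes, and only Psmd11, a lid subunit, had no probe with a matching accession. The 33 genes were well above background on all 9 arrays, so none was lost to a filter on dim signal. With spots that carry a quality flag removed, 28 of the 33 were tested among 11047 genes, 12 of the core and 16 of the regulatory particle. The remaining 5 (Psmb1, Psmb4, Psmc2, Psmd2 and Psmd4) were measured with flagged spots kept, when 33 members were tested among 11636 genes.

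Bladder RNA of female rats was hybridised to 9 Agilent arrays of a single colour, 3 arrays for each group, all taken at 3 weeks. Sham rats were operated on without tying the urethra. In the obstructed rats (pBOO, partial bladder outlet obstruction) the proximal urethra was tied over a catheter of 1 mm outer diameter, and the last group were pBOO rats given tolterodine, which blocks muscarinic acetylcholine receptors. Strain, age, dose and length of drug treatment are not stated, 5 bladder specimens per group are stated for 3 arrays, and the labels do not say whether an array carries 1 animal or a pool. All p-values therefore measure the spread between these arrays, which may be technical. The treatment protocol uses the letters for obstruction and sham the opposite way from the codes of the samples. The titles were followed here, and every direction rests on them.

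The core particle is a barrel of stacked rings. Its outer rings of alpha subunits (Psma genes) gate the entry, and its inner rings of beta subunits (Psmb genes) hold the proteolytic sites on Psmb5, Psmb6 and Psmb7. The regulatory particle caps the barrel: a base with a ring of ATPases (Psmc genes) unfolds the substrate, and a lid (most Psmd genes) removes its ubiquitin. In muscle the proteasome is known for breaking down myofibrillar proteins when the tissue is remodelled.

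Levels below are log2 values relative to the 75th percentile of an array, and a change is a difference of such levels between groups, given with its standard error (SE) from limma. A gene is said to have fallen or risen where its Benjamini-Hochberg adjusted p over all genes tested was under 0.05. Levels of different probes are not comparable, so only changes are set side by side between genes. The 75th percentile of the intensity ran from 523 to 1440. On each array 72.1% to 80.1% of the spots exceeded background clearly, and 4.66% to 6.31% carried a flag. By scan time, scan 1 holds sham 2, sham 3, tolterodine 1 and tolterodine 2, scan 2 holds sham 1 and the 3 pBOO arrays, and scan 3 holds tolterodine 3 alone. Array sham 1 correlated at 0.966 with sham 2 across genes and at 0.973 with tolterodine 1, while sham 2 and sham 3 correlated at 0.994. The arrays of a group were also ordered in the same way at most genes. Sham 3 lay between sham 1 and sham 2 at 71.6% of the 10104 genes complete on all 9 arrays and at 21 of 24 such members, and pBOO 3 lay between the other pBOO arrays at 70.3% of genes and 20 members, where 33.3% would be an equal share. Tolterodine 1 lay between the other tolterodine arrays at 63.2% of genes and 16 members. The relation of the arrays of a group to each other is not given in the labels. Counts below are therefore also given with sham 3 and pBOO 3 both left out, a repeat chosen after the data were seen. Tolterodine 1 stayed in that repeat.

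Core subunit genes were lower in the obstructed bladder than in sham, with a larger median change than the genes of the regulatory particle. Of the 28 tested members, 15 fell and 0 rose, where 21.7% of all genes fell and 20.8% rose. The core gave 11 of 12 and the regulatory particle 4 of 16. The median change of the core was -0.57, or 67.3% of the sham level, against -0.23 for the regulatory particle (85.2%) and -0.04 for all genes. With flagged spots kept, 19 of 33 members fell, 13 of 14 in the core and 6 of 19 in the regulatory particle, where 22.9% of all genes fell. All pBOO arrays lay below all sham arrays for 19 of the 28 members, and above them for 1, where 29.8% of all genes lay wholly below and 26% wholly above.

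These counts depended on the scaling and on single arrays more than the direction did. With quantile scaling 6 members fell (5 core), where 21.4% of all genes did, and with sham 3 and pBOO 3 both left out 4 did: Psma5, Psma6, Psmb5 and Psmd9. The share of all genes that fell was then 9.31%, and the core median was -0.59. Within scan 2 the pBOO arrays stand against sham 1 alone, which is assumed to vary like them since its own spread is unmeasured. There 9 fell (8 core), where 12.6% of all genes did, and the core median was -0.65.

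Genes of high signal as a whole were lower in pBOO on the scaled values, and most core genes belong to them. The 75th percentile of intensity was 951 to 1440 on the pBOO arrays and 587 to 820 on the sham arrays. Genes were ordered by mean level and cut into 10 classes of equal size. Of the tested core genes, 8 of 12 lay in the class of highest level, as did 3 of 16 regulatory genes. The median gene of that class changed by -0.36, and 44.3% of its genes fell, against a median of 0.15 and 11% in the class of dimmest genes. Set against genes of their own class of level, the core median was -0.33, with 11 of 12 core genes below their class median, and the regulatory median was -0.04, with 10 of 16 below. This setting was added after the data were seen. The part of signal level or array intensity in the fall was not tested further.

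**Figure D1:**
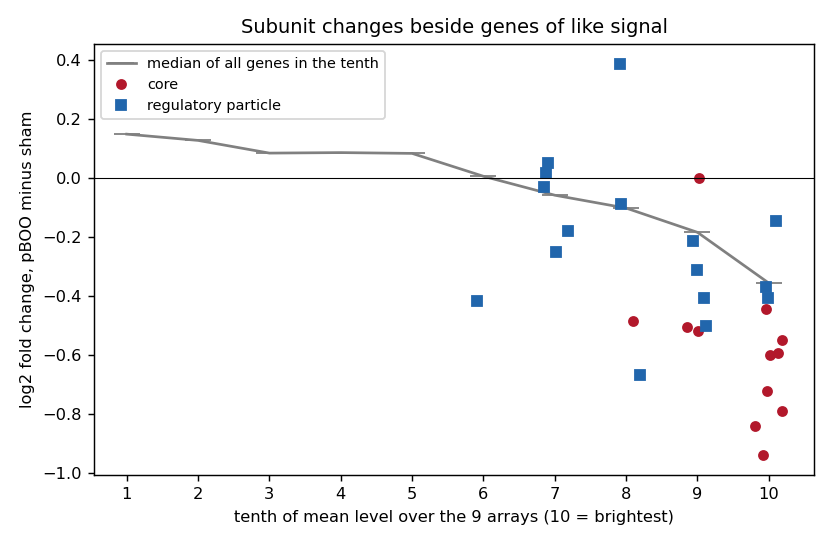
Log2 fold change of pBOO over sham (vertical axis) against the class of mean level over the 9 arrays (horizontal axis, 10 classes of equal size, 10 is brightest), for 12 core genes (red circles) and 16 regulatory genes (blue squares), with the median of all genes in each class as a grey line. The grey line goes from 0.15 in the dimmest class to -0.36 in the brightest, and 11 of 12 core genes lie below it.

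The promoters of a few members are shown because these members changed unequally: Psma5 and Psmb5 fell most in pBOO, Psma3 rose most with tolterodine, and Psmb7 was the core gene whose change in pBOO did not pass. The sequences are the 250 bases before the annotated start in RefSeq on assembly GRCr8, and the strand is that of the gene. Capitals mark the letters TGACNNNGC, part of the antioxidant response element to which Nfe2l1 and Nfe2l2 bind, and CCAAT, the box of the factor NF-Y, on either strand. The intervals are chr2:198584255-198584504 on the + strand for Psma5, chr15:32047380-32047629 on the - strand for Psmb5, chr6:95219499-95219748 on the + strand for Psma3, and chr3:42827471-42827720 on the - strand for Psmb7.
Psma5: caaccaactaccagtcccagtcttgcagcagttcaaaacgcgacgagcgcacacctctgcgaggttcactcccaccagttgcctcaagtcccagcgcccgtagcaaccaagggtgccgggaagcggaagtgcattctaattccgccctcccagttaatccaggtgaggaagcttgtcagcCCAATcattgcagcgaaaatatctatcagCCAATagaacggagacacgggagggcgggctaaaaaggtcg
Psmb5: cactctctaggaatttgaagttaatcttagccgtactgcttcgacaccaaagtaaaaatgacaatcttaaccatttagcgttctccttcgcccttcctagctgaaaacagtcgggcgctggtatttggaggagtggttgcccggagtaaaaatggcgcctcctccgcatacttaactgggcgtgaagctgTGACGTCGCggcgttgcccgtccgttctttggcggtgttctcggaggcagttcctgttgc
Psma3: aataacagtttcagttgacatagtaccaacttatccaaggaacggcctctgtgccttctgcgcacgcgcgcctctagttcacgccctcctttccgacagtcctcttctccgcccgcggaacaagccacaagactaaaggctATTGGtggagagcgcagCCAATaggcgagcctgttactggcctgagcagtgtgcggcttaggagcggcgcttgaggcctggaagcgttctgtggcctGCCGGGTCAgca
Psmb7: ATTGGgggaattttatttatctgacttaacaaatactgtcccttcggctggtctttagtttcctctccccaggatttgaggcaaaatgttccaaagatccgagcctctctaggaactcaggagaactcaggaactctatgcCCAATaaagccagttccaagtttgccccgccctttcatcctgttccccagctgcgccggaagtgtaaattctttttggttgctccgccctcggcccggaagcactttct

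The Psmb5 promoter held TGACNNNGC with its outermost base 60 bases before the start and no CCAAT, while that of Psma5 held CCAAT at 70 and 41 bases and no TGACNNNGC. The Psma3 promoter held TGACNNNGC at 12 bases and CCAAT at 109 and 92 bases, and that of Psmb7 held CCAAT at 250 and 109 bases and no TGACNNNGC. Counts over sets of genes use windows of 300 bases, from 250 before to 50 after the start, searched on both strands. An entry was matched for 30 of the 34 members, and none for Psma7, Psmd6, Psmd12 or Psmd14. TGACNNNGC was in 4 of 13 core promoters and 3 of 17 regulatory promoters, and in 12.1% of 33469 promoters in all. CCAAT was in 9 of 13 core and 7 of 17 regulatory promoters and in 37.5% of all. The GC box GGGCGG was in 11 of 13 and 10 of 17 (33.1% of all), and the ETS site CCGGAA in 4 of 13 and 12 of 17 (15% of all). Among 21851 promoters of protein-coding genes the shares were 12.5%, 38%, 41.8% and 17.7% in the same order. The 4 core genes with TGACNNNGC and 8 of the 9 without it fell in pBOO with flagged spots kept, where 22.9% of all genes did. Among regulatory genes 1 of 3 with it and 4 of 13 without it fell. For CCAAT, 8 of 9 core genes with it and 4 of 4 without it fell. The regulatory counts for CCAAT were 3 of 7 with it and 2 of 9 without it. These matches describe letters in a window and not sites of binding.

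The alpha ring, which gates the core particle, was lower in pBOO: 7 of 7 genes fell, where 21.7% of all genes did. Its median change was -0.59. Psma2, Psma4, Psma5, Psma6 and Psma7 lie in the class of highest level, where 44.3% of genes fell and the median was -0.36. With quantile scaling all 7 changes stayed below 0, and 3 passed (Psma2, Psma3 and Psma5), beside the share of all genes given above for that scaling. Psma5 stood at 2.90, 2.98 and 2.99 on the sham arrays and at 2.01, 2.01 and 2.03 on the pBOO arrays. It stood at 2.53, 2.44 and 2.59 with tolterodine. The pBOO arrays lay close together (2.02 ± 0.0122, SD, n = 3) and well below sham (2.96 ± 0.0498, SD, n = 3), and the tolterodine arrays lay between the other groups without overlap. Psma5 fell by 0.94 in pBOO (SE 0.0961; adjusted p = 0.000152) to 52.1% of sham, and remained 0.44 below sham with tolterodine (SE 0.0961; adjusted p = 0.0128). The second call was lost without sham 3, tolterodine 1 or tolterodine 2 (adjusted p = 0.0502 to 0.0631).

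Psma2, another alpha subunit, had 2 unflagged arrays per group. It stood at 2.52 and 2.39 in sham, at 1.70 and 1.63 in pBOO, and at 2.14 and 2.13 with tolterodine, and the groups did not overlap. Its fall was 0.79 (SE 0.142; adjusted p = 0.00691) and its rise with tolterodine over pBOO 0.47 (SE 0.142; adjusted p = 0.043). That rise was not called without pBOO 2, pBOO 3, tolterodine 1 or tolterodine 2 (adjusted p = 0.0962 to 0.184). Psma6 stood at 4.35 and 4.23 in sham, where sham 3 was flagged, at 3.54, 3.58 and 3.58 in pBOO, and at 4.10, 3.97 and 4.43 with tolterodine. Its tolterodine arrays overlapped sham and lay above all pBOO arrays. Psma6 fell by 0.72 (SE 0.155; adjusted p = 0.00747) and rose with tolterodine by 0.60 (SE 0.138; adjusted p = 0.0106). With quantile scaling these changes were -0.29 and 0.28, and neither passed (adjusted p = 0.0752 and 0.059).

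Psma3 behaved differently with the drug. It stood at 1.25, 1.00 and 0.96 in sham, at 0.53, 0.60 and 0.56 in pBOO, and at 1.27, 1.38 and 1.36 with tolterodine, so that every tolterodine array was above every sham array. The fall in pBOO was 0.50 (SE 0.111; adjusted p = 0.00662), and the rise with tolterodine of 0.77 (SE 0.111; adjusted p = 0.000821) took it to 171% of pBOO. Against sham the tolterodine arrays were 0.27 higher, which did not pass (adjusted p = 0.111), but passed without sham 1 (0.36, adjusted p = 0.0234) and with the scan as a fixed block (0.34, adjusted p = 0.0219) or a random one (0.31, adjusted p = 0.0256). The other alpha genes fell by 0.52 (Psma1), 0.55 (Psma4) and 0.59 (Psma7), to between 66.3% and 69.7% of sham.

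Of the catalytic beta subunits, Psmb5 fell most, Psmb6 fell at the edge of the threshold, and the change of Psmb7 in pBOO was near 0. Psmb5, the subunit of the chymotrypsin-like site, stood at 2.74, 2.92 and 2.96 in sham, at 1.81, 2.16 and 2.12 in pBOO, and at 2.34, 2.20 and 2.50 with tolterodine. The groups did not overlap. The fall in pBOO was 0.84 (SE 0.137; adjusted p = 0.0015), to 55.7% of sham, and with tolterodine Psmb5 was still 0.52 below sham (SE 0.137; adjusted p = 0.0252). Against pBOO it was 0.32 higher with tolterodine and did not pass (adjusted p = 0.0913). Its call against sham with the drug was lost without sham 2, sham 3, tolterodine 1 or tolterodine 2 (adjusted p = 0.0774 to 0.0977).

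Psmb6, the subunit of the caspase-like site, stood at 0.81, 0.60 and 0.63 in sham and at 0.13, 0.27 and 0.17 in pBOO. With tolterodine it stood at 0.39, 0.26 and 0.91, the widest spread among the members in that group (SD 0.344, n = 3), with tolterodine 3 above every sham array. The pBOO and sham arrays did not overlap, and the fall was 0.49 (SE 0.169; adjusted p = 0.0454). That call was lost when any of the 6 sham and pBOO arrays was left out (adjusted p = 0.0702 to 0.116). Psmb7, the subunit of the trypsin-like site, stood at 1.36, 1.08 and 1.11 in sham, at 1.08, 1.27 and 1.20 in pBOO, and at 1.32, 1.40 and 1.34 with tolterodine. Sham and pBOO overlapped fully, with a change of -0.0009 (SE 0.116; adjusted p = 0.996), and the rise of 0.17 with tolterodine did not pass (adjusted p = 0.27). RefSeq lists a near copy of Psmb6 and of Psmb3 in the rat (Psmb6l1 and Psmb3l1), and whether these probes also bind it was not tested.

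The beta subunits without a catalytic site were each lower in pBOO. Psmb3 stood at 2.46, 2.22 and 2.27 in sham, at 1.61, 1.80 and 1.74 in pBOO, and at 2.26, 2.20 and 2.43 with tolterodine. Its tolterodine arrays lay within or next to the sham range. The fall was 0.60 (SE 0.118; adjusted p = 0.00382), and the rise with tolterodine was 0.58 (SE 0.118; adjusted p = 0.00475). Psmb2 fell by 0.44 (adjusted p = 0.00642), but changed by -0.11 with quantile scaling, which did not pass (adjusted p = 0.363). With flagged spots kept, Psmb1 fell by 0.62 (adjusted p = 0.0102) and Psmb4 by 0.66 (adjusted p = 0.00419). Psmb4 stood at 4.75, 4.73 and 4.75 in sham and at 4.06, 4.09 and 4.12 in pBOO, a gap many times the spread within either group.

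**Figure D2:**
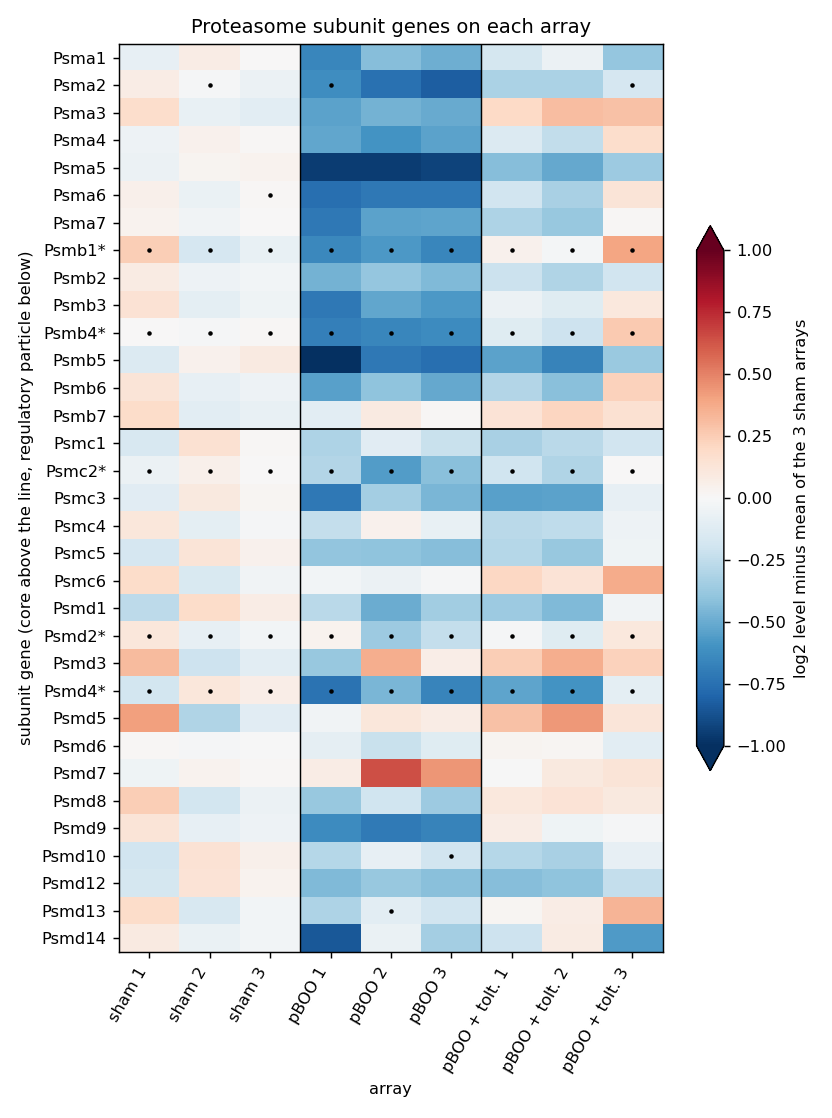
Log2 level of 33 subunit genes (rows) on the 9 arrays (columns), minus the mean of the 3 sham arrays, with flagged spots kept; blue is below and red above sham. A dot marks an array on which a gene has no value once flagged spots are removed. Genes with an asterisk had too few unflagged spots for the main test and carry a dot on every array, flagged there or not. The rows of the core, above the line, are blue on the 3 pBOO arrays except for Psmb7, and the rows below it are mixed.

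The regulatory particle moved less evenly. In the base, 2 of 5 tested ATPases fell in pBOO, where 21.7% of all genes did. Psmc3 stood at 1.80, 2.01 and 1.94 in sham, at 1.20, 1.58 and 1.46 in pBOO, and at 1.38, 1.38 and 1.83 with tolterodine. Psmc5 stood at 3.36, 3.66 and 3.58 in sham, at 3.14, 3.13 and 3.11 in pBOO, and at 3.25, 3.16 and 3.49 with tolterodine. For both, pBOO lay below sham without overlap, and the tolterodine arrays reached from within (Psmc3) or just above (Psmc5) the pBOO range into the sham range. Psmc3 fell by 0.50 (SE 0.16; adjusted p = 0.0326) and Psmc5 by 0.41 (SE 0.127; adjusted p = 0.0294).

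Both ATPase calls were lost in several settings. That of Psmc3 was lost without sham 2, sham 3, pBOO 1 or pBOO 3 (adjusted p = 0.0745 to 0.101), and that of Psmc5 without sham 2, sham 3 or any pBOO array (adjusted p = 0.0595 to 0.0975). With quantile scaling Psmc5 changed by -0.02 and Psmc3 by -0.32 (adjusted p = 0.873 and 0.119). With the scan as a fixed block the values were -0.24 and -0.39 (adjusted p = 0.0974 and 0.0899), and with normexp they were -0.33 and -0.47 (adjusted p = 0.0989 and 0.0522). With a random block Psmc5 stood at -0.32 (adjusted p = 0.0553). Psmc1 (-0.21), Psmc4 (-0.09) and Psmc6 (-0.03) did not pass, and Psmc2 fell by 0.42 with flagged spots kept (adjusted p = 0.0205). The base scaffolds Psmd1, at -0.37 (adjusted p = 0.0902), and Psmd2, at -0.19 with flagged spots kept (adjusted p = 0.278), did not pass. Without sham 1 Psmd1 did pass, at -0.50 (adjusted p = 0.0252).

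The subunits that handle ubiquitin gave an uneven picture. Psmd4, a ubiquitin receptor, was measured with flagged spots kept and stood at 1.98, 2.27 and 2.22 in sham, at 1.42, 1.70 and 1.50 in pBOO, and at 1.63, 1.56 and 2.06 with tolterodine. The pBOO arrays lay below all sham arrays, with a fall of 0.62 (SE 0.162; adjusted p = 0.0142). Psmd14, the metalloprotease of the lid that cuts ubiquitin from the substrate, stood at -0.96, -1.12 and -1.08 in sham and at -1.90, -1.11 and -1.39 in pBOO. With tolterodine it stood at -1.26, -0.97 and -1.62. The groups overlapped, its pBOO spread was the widest among the members (SD 0.4, n = 3), and the change of -0.42 did not pass (SE 0.222; adjusted p = 0.161).

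In the rest of the lid, 1 of 6 tested genes fell in pBOO, where 21.7% of all genes did. Psmd12 stood at 1.85, 2.16 and 2.06 in sham, at 1.58, 1.65 and 1.62 in pBOO, and at 1.60, 1.63 and 1.79 with tolterodine. Both obstructed groups lay below all sham arrays. The fall was 0.41 (SE 0.116; adjusted p = 0.0205), and with tolterodine the change from sham was -0.35 (adjusted p = 0.0554). With the scan as a fixed block the order of the calls turned: the fall in pBOO did not pass (-0.23, adjusted p = 0.101) and that with tolterodine did (-0.50, adjusted p = 0.0058). The latter also passed with a random block (-0.43, adjusted p = 0.00869) and with the array median (-0.49, adjusted p = 0.0195), and the former did not with quantile scaling (-0.21, adjusted p = 0.153). The call in pBOO was lost without sham 2, sham 3, pBOO 1 or pBOO 3 (adjusted p = 0.0515 to 0.0773).

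Psmd7, the lid partner of Psmd14, went the other way and was named after its values were seen. It stood at -0.15, -0.08 and -0.10 in sham, at -0.04, 0.53 and 0.33 in pBOO, and at -0.12, -0.01 and 0.02 with tolterodine. Each pBOO array was above each sham array, and the difference of 0.39 did not pass (SE 0.148; adjusted p = 0.0622). Without pBOO 1 it was 0.55 and passed (adjusted p = 0.00928), as did the change of -0.47 from pBOO to tolterodine (adjusted p = 0.0169). Psmd3 (0.02), Psmd6 (-0.15), Psmd8 (-0.31) and Psmd13 (-0.25) did not pass. Without sham 2 Psmd8 passed, at -0.41 (adjusted p = 0.0499), and with the array median, at -0.39 (adjusted p = 0.0381). With the scan as a fixed or random block, Psmd8 (-0.56, adjusted p = 0.0105, and -0.47, adjusted p = 0.0134) and Psmd13 (-0.44, adjusted p = 0.038, and -0.39, adjusted p = 0.0346) both passed.

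Psmd5, Psmd9 and Psmd10 are chaperones that help to assemble the base and leave before the particle is complete. Psmd9 stood at 0.67, 0.46 and 0.49 in sham, at -0.09, -0.17 and -0.13 in pBOO, and at 0.61, 0.50 and 0.53 with tolterodine. The pBOO arrays lay far below both other groups, which overlapped. It fell by 0.67 in pBOO (SE 0.103; adjusted p = 0.00116) and rose by 0.68 with tolterodine (SE 0.103; adjusted p = 0.00114), and its second probe changed by -0.42 and 0.45. Psmd5 stood at 0.19, -0.51 and -0.32 in sham, at -0.25, -0.10 and -0.14 in pBOO, and at 0.08, 0.21 and -0.09 with tolterodine. Psmd10 stood at -0.40, -0.06 and -0.15 in sham, at -0.49 and -0.29 on the unflagged pBOO arrays, and at -0.49, -0.53 and -0.29 with tolterodine. For Psmd5 and Psmd10 the sham and pBOO arrays overlapped, and the changes of 0.05 (adjusted p = 0.84) and -0.18 (adjusted p = 0.375) did not pass. With tolterodine Psmd5 was 0.23 above pBOO and 0.28 above sham, and neither passed. With the scan as a fixed block these were 0.92 (adjusted p = 0.00712) and 0.56 (adjusted p = 0.00947). With a random block they were 0.63 (adjusted p = 0.0367) and 0.43 (adjusted p = 0.0455). Without sham 1 Psmd5 was 0.49 above sham (adjusted p = 0.022).

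**Figure D3:**
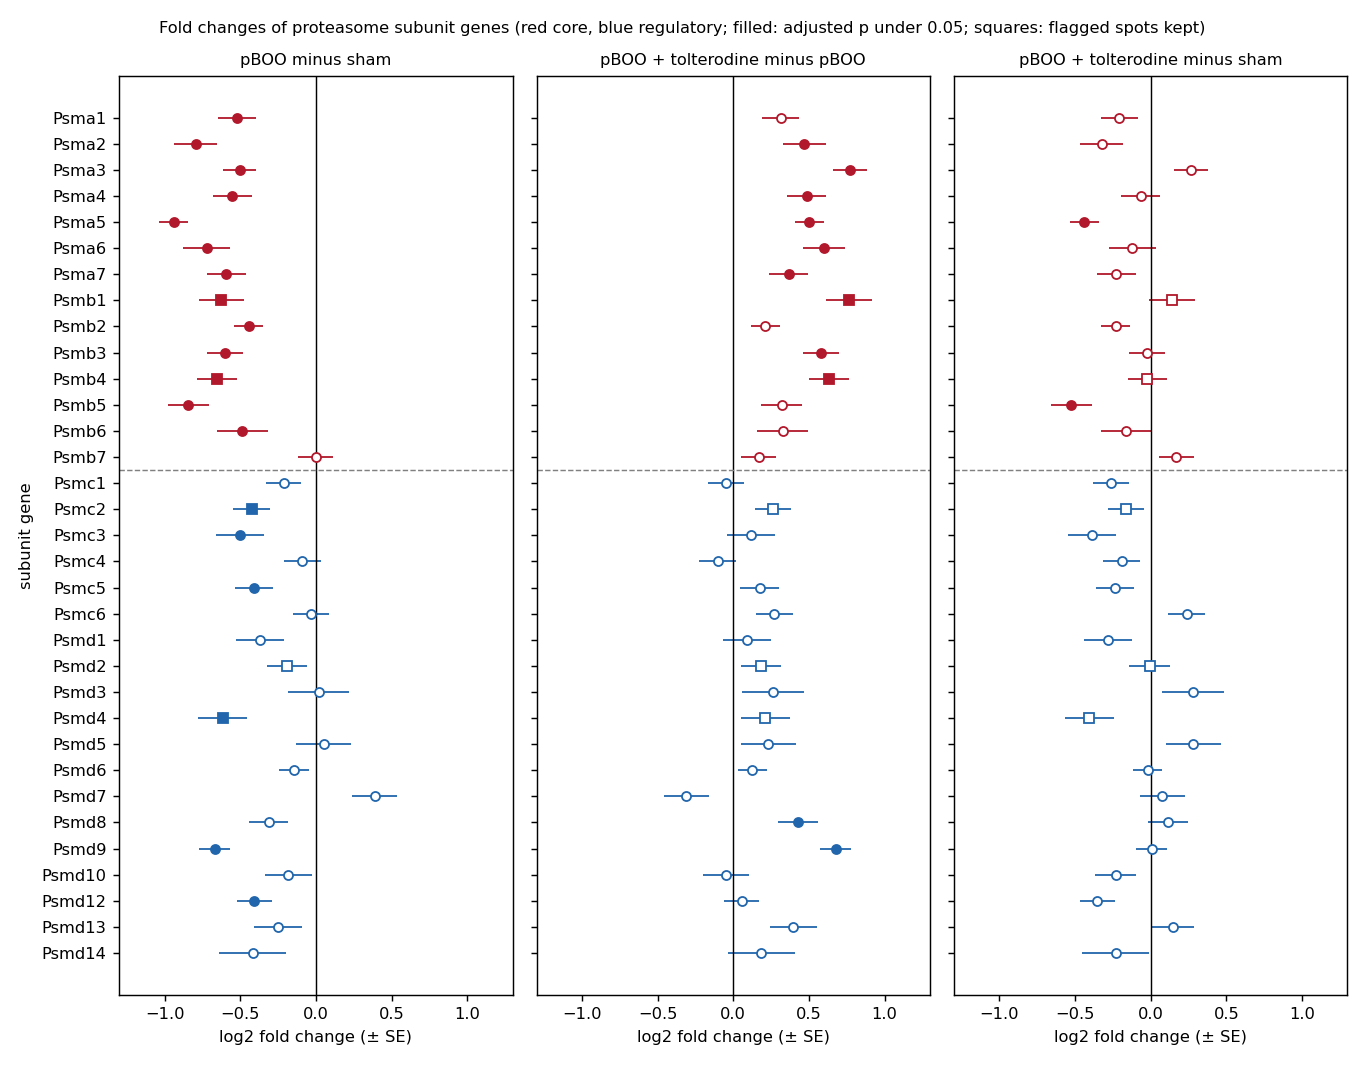
Log2 fold change with its standard error (horizontal axes) for 33 subunit genes (rows) in the 3 comparisons, with core genes in red, regulatory genes in blue, squares for genes measured with flagged spots kept and filled symbols for an adjusted p under 0.05. Among circles, the filled symbols number 15 in the left panel, all below 0, 9 in the middle panel, all above 0, and 2 in the right panel, both below 0.

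With tolterodine, several of the core genes that were low in pBOO were higher again. Of 28 members 9 rose and 0 fell against pBOO, where 26% of all genes rose and 15.3% fell. The core gave 7 of 12 (Psma2, Psma3, Psma4, Psma5, Psma6, Psma7 and Psmb3) and the regulatory particle 2 of 16 (Psmd8 and Psmd9). The core median was 0.42, the regulatory median 0.15 and the median of all genes 0.11. This comparison shares the pBOO arrays with the one before it, so the rise is not independent of the fall. With flagged spots kept 11 of 33 rose, where 26.6% of all genes did, adding Psmb1 (0.77, adjusted p = 0.00415) and Psmb4 (0.63, adjusted p = 0.00522). All tolterodine arrays lay above all pBOO arrays for 17 of the 28 members, 11 in the core, where 36.7% of all genes did so.

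Psmd8, a lid subunit, stood at 0.62, 0.79 and 0.63 in pBOO, at 1.10, 1.13 and 1.09 with tolterodine, and at 1.24, 0.81 and 0.93 in sham. The tolterodine arrays lay within the sham range, and the rise over pBOO was 0.43 (SE 0.13; adjusted p = 0.0282). It was lost without pBOO 1, pBOO 3, tolterodine 1 or tolterodine 2 (adjusted p = 0.0726 to 0.0957). The rise of Psma7, 0.37 (adjusted p = 0.0469), was lost without any of the pBOO arrays or without tolterodine 1 or tolterodine 3 (adjusted p = 0.0728 to 0.123).

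No scan holds both pBOO and tolterodine arrays. With the scan as a fixed block, a comparison that then runs through the sham arrays, 8 members rose, where 23.1% of all genes did, 3 in the core (Psma3, Psma6 and Psmb3) and 5 in the regulatory particle, and the core median was 0.35. With quantile scaling 5 rose (3 core), while 22.6% of all genes rose and 20.3% fell, and the regulatory median was -0.02. With sham 3 and pBOO 3 both left out, Psma3, Psmb3 and Psmd9 rose, where 16.3% of all genes did, and the core median was 0.41. Genes of the highest class of level rose too, by a median of 0.25, and against genes of their own class the core median was 0.24 and the regulatory median 0.01.

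Against sham, the members in tolterodine-treated bladders were close to or slightly below the sham level. Psma5 and Psmb5, given above, fell, and 0 members rose, where 6.58% of all genes fell and 17.8% rose. The core median was -0.18, or 88% of sham, the regulatory median -0.11 (92.9%) and the median of all genes 0.09. With the array median in place of the percentile, 13.2% of all genes fell and 13.2% rose. Of the 28 members 6 then fell.

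This comparison rested on single arrays and on the scan. The number of members called was 6 without sham 1 (4 lower and 2 higher, where 11.2% of all genes fell and 23% rose), 1 without sham 2, 0 without sham 3, 0 without tolterodine 1, 0 without tolterodine 2, 5 without tolterodine 3, and 0 with sham 3 and pBOO 3 both left out. In the settings other than that without sham 1, between 0.498% and 7.88% of all genes fell and between 7.16% and 16.2% rose. Within scan 1, with sham 2 and sham 3 against tolterodine 1 and tolterodine 2, 14 members were called, 10 lower and 4 higher, where 21.4% of all genes fell and 31.7% rose. Of these, 4 of the lower and 2 of the higher were in the core.

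Array by array, the core was set apart from the regulatory particle on every pBOO array. The median core gene stood 0.65, 0.53 and 0.53 below the mean of sham on pBOO 1 to 3, and the median regulatory gene 0.31, 0.11 and 0.22 below it. On the sham arrays the core medians were 0.06, -0.06 and -0.02. Sham arrays lie near 0 by construction here, since the sham mean of each gene was subtracted. The difference of core and regulatory medians was -0.34, -0.42 and -0.31 on the pBOO arrays and between -0.02 and 0.01 on the sham arrays. With tolterodine it was -0.09, -0.30 and 0.15, from just above the pBOO arrays to above sham. With flagged spots kept it was 0.011, -0.15 and 0.15. Tolterodine 3, the array with a scan of its own, had the highest core median (0.11) of all 9 arrays. It also had the lowest 75th percentile of intensity (523), and pBOO 1, with the lowest core median, had the highest (1440). That percentile was 587 to 820 on the sham arrays, 901 on tolterodine 1, 1080 on tolterodine 2 and 951 to 1440 on the pBOO arrays. The part of array intensity in the core medians was not tested. Over the fits, the core median minus the regulatory median was -0.34 for pBOO against sham, 0.27 for tolterodine against pBOO and -0.08 for tolterodine against sham. These differences carry no p-value, since the members are not replicates and were listed with results known.

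**Figure D4:**
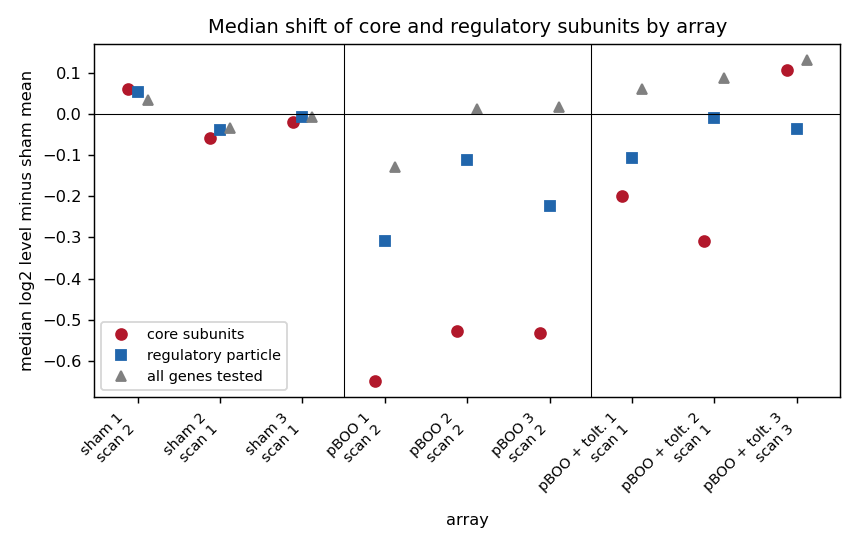
Median log2 level minus the sham mean (vertical axis) of 12 core genes (red circles), 16 regulatory genes (blue squares) and all genes tested (grey triangles) on each array, with its scan number. The core stands at -0.65 to -0.53 on the pBOO arrays, below the regulatory genes on each, and at -0.31 to 0.11 on the tolterodine arrays.

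Without Psmd5, Psmd9 and Psmd10, 3 of 13 regulatory genes fell in pBOO, near the share of 21.7% of all genes, with a median of -0.25. The median SD between arrays over the members was 0.117 in sham, 0.0918 in pBOO and 0.121 with tolterodine.

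Genes that build or modify the proteasome are given by list, and the shares of all genes to set beside them are 21.7% lower and 20.8% higher in pBOO and 26% higher with tolterodine. These lists hold few genes and were not tested as lists. Of 3 tested assembly chaperones of the core particle, 3 fell in pBOO and 2 rose with tolterodine. Pomp, which guides the beta ring into place, stood at 3.42, 3.24 and 3.29 in sham, at 2.70, 2.75 and 2.73 in pBOO, and at 3.23, 3.09 and 3.28 with tolterodine. Only tolterodine overlapped with sham. Pomp fell by 0.59 (SE 0.104; adjusted p = 0.00222) and rose with tolterodine by 0.47 (SE 0.104; adjusted p = 0.00688). Psmg2 fell by 0.50 and rose by 0.48, and Psmg4 fell by 0.64 (adjusted p = 0.015) and was 0.05 higher with tolterodine, which did not pass. With quantile scaling Pomp changed by -0.26 and 0.23 and no longer passed (adjusted p = 0.0548 and 0.0761).

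Of 5 caps and inhibitors, 3 fell and 1 rose in pBOO, and 2 rose with tolterodine. Psme2 and Psme1, the chains of the interferon-inducible cap, fell by 1.18 (adjusted p = 0.000173) and 0.94 (adjusted p = 0.00613) and rose with tolterodine by 0.65 and 0.61. Psmf1, an inhibitor of the core particle, fell by 0.44 (adjusted p = 0.031). With quantile scaling the rise of Psme1 (0.27, adjusted p = 0.139) and the fall of Psmf1 (-0.34, adjusted p = 0.0667) did not pass. Psme4, a nuclear cap, stood at 0.41, 0.01 and 0.11 in sham and at 1.00, 0.58 and 0.78 in pBOO, and rose by 0.61 (SE 0.148; adjusted p = 0.0102). It was thus high on all pBOO arrays while the caps of the interferon response were low. The inducible catalytic subunits Psmb9 and Psmb8, which replace constitutive ones under interferon, fell by 1.77 and 1.48 and rose with tolterodine by 0.85 and 1.03.

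Of 4 other proteins that bind the proteasome, 2 fell in pBOO and 2 rose with tolterodine. Txnl1, a thioredoxin-like protein of the regulatory particle, fell by 0.70 (adjusted p = 0.000843) and rose by 0.54. Sem1, the small lid subunit, fell by 0.73 (adjusted p = 0.00635) and rose by 0.59, changes that were -0.20 and 0.21 with quantile scaling and did not pass (adjusted p = 0.126 and 0.112). Usp14, a deubiquitinase bound to the base, changed by 0.01 and -0.08, and neither passed. Psma8, an alpha subunit of the testis, was well above background on 5 of 9 arrays, none of them with tolterodine, and its change in pBOO of -0.47 did not pass.

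Among 6 tested regulators of proteasome genes, 1 fell in pBOO. Nfe2l2, the main factor of the antioxidant response, stood at 3.47, 3.51 and 3.51 in sham, at 2.51, 2.89 and 2.74 in pBOO, and at 2.95, 3.01 and 3.10 with tolterodine. Both obstructed groups lay below sham. It fell by 0.79 in pBOO (SE 0.121; adjusted p = 0.00113) and was 0.48 below sham with tolterodine (adjusted p = 0.0221). Nfe2l1, the factor that raises proteasome genes when the complex is inhibited, was 0.16 higher in pBOO and did not pass (adjusted p = 0.378). Nfya, a subunit of NF-Y, was 0.22 lower in pBOO without passing (-0.33 with quantile scaling, adjusted p = 0.0498) and rose with tolterodine by 0.79 (adjusted p = 0.000836).

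**Figure D5:**
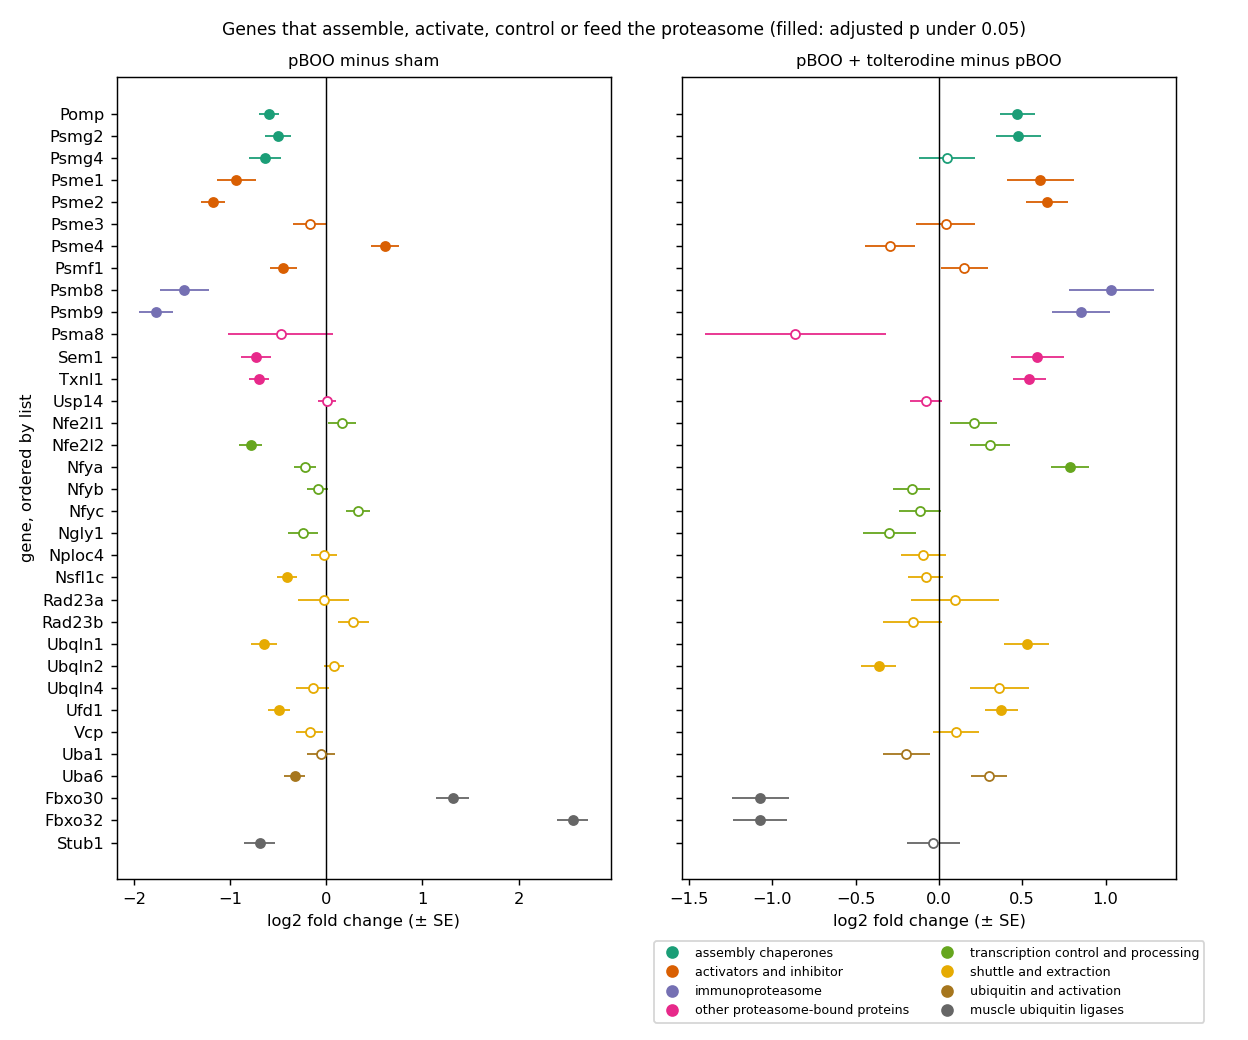
Log2 fold change with its standard error (horizontal axes) of the tested genes that assemble, activate, control or feed the proteasome (rows, coloured by list), for pBOO against sham on the left and tolterodine against pBOO on the right, with filled symbols for an adjusted p under 0.05. The assembly chaperones, Psme1, Psme2, Psmb8 and Psmb9 lie below 0 on the left and above 0 on the right, while Fbxo32 and Fbxo30 lie the other way. Fbxo32 was not well above background on any sham array, nor Psma8 on any tolterodine array, so those positions are measured values and not sizes of change.

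Markers of several cell types moved with the same groups, and in bulk tissue fewer cells of a type and less RNA per cell cannot be told apart. The 11 urothelial markers and the 9 smooth muscle markers with a probe were well above background on all 9 arrays. Of the tested ones, 4 of 7 urothelial markers fell in pBOO, and 5 of 6 smooth muscle markers rose, where 21.7% of all genes fell and 20.8% rose. Against pBOO, 4 urothelial markers were higher and 1 lower with tolterodine, and 5 smooth muscle markers were lower. Of all genes, 26% were higher and 15.3% lower there. With flagged spots kept, as in the sums below, 6 of 11 urothelial markers fell in pBOO and 6 of 9 smooth muscle markers rose. Against pBOO, 4 urothelial markers were then higher and 4 lower with tolterodine, and 6 smooth muscle markers were lower. In that setting 22.9% of all genes fell in pBOO and 26.6% rose with tolterodine. The summed linear urothelial level was 429 to 455 in sham, 234 to 354 in pBOO and 270 to 373 with tolterodine, and that of smooth muscle was 425 to 485, 544 to 662 and 344 to 534. All these sums are relative to the array's 75th percentile, with flagged spots kept.

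Markers of macrophages and of dividing cells changed in the same direction as the core genes in pBOO, and again from pBOO to tolterodine. In pBOO 7 of 10 and 6 of 6 were lower, and with tolterodine 9 and 6 were higher. The shares of all genes to set beside the counts here were 21.7% lower and 20.8% higher in pBOO and 26% higher with tolterodine. Against sham, 8 of 10 macrophage markers were higher with tolterodine, where 17.8% of all genes were. The core median was -0.18 there. The summed macrophage level was 27.6 to 35.2 in sham, 13.8 to 15.4 in pBOO and 61.5 to 72.1 with tolterodine, and that of dividing cells was 7.23 to 12.2, 1.89 to 2.6 and 9.58 to 10.3. The neutrophil sum was 2.18 to 3.14, 0.343 to 0.578 and 4.71 to 5.31, with Ngp not well above background on any array. The T cell sum was 1.2 to 1.39, 0.919 to 1.14 and 1.71 to 2.04, the fibroblast sum 48.2 to 51.8, 55.5 to 62.5 and 76.3 to 79, and the endothelial sum 2.99 to 3.04, 3.42 to 5.64 and 3.28 to 3.71. Among markers well above background on all 9 arrays, 2 of 3 neutrophil and 1 of 3 T cell markers fell in pBOO, and 3 of 6 fibroblast and 2 of 4 endothelial markers rose. Csf3r and Cxcr2 were not well above background on any pBOO array, Tek on any sham or tolterodine array, and Cd3e on any sham or pBOO array. With quantile scaling 6 of 6 fibroblast markers rose. The part of cell composition in the change of the subunit genes was not tested.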

How the data were processed

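Total bladder RNA was labelled with Cy3 and hybridised to 9 arrays, 1 file each. Per the file headers, the authors' processed signal is a background-subtracted, spatially detrended intensity from Feature Extraction 11.0.1.1, not normalized between arrays, while the submitters' processing notes name version 9.1. The deposited quality flags are values of 0 or 1, another kind of unit.

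After control spots were left out, the log2 of 42877 processed signals was taken and the 75th percentile of the array subtracted. Spots flagged as non-uniform or population outlier, for the spot or its background, were removed in the main setting. Probes of the 5 members lost in this way carried only flags of the local background. Spots of a probe were averaged. A probe had to be well above background on at least 3 arrays and unflagged on at least 2 per group. Accessions were matched to RefSeq symbols (GRCr8), which named 18005 of 30367 probes, and the brightest probe stood for a gene. The deposited raw median intensity and local background served the normexp alternative (offset 50).

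All comparisons came from a single limma fit (R 4.3.3, limma 3.58.1, 6 residual degrees of freedom). Tests were two-sided, with Benjamini-Hochberg over all genes and a threshold of 0.05. The code was tested on simulated data in which the arrays varied independently. The arrays of a group here were ordered alike at most genes, so that test does not show how well these p-values hold. The median SE was 0.171, and the number of arrays limits the precision. Given in full were, for each comparison, the 3 largest falls and rises past the threshold in core and in regulatory particle, and always Psmb5, Psmb6, Psmb7, Psmd4, Psmd14, Psmd5, Psmd9 and Psmd10. Psmc5, Psmb4 and Psmd7 were added after their values were seen. Members, lists and rule were chosen with earlier results of these data known. Alternatives were the scaling, the background correction, the flags, the filter, the probe rule, the scan as a block, the replicate number as a block, an intensity trend, leaving out each array in turn, and, chosen after the data were seen, leaving out sham 3 and pBOO 3 together and setting genes against others of the same class of level.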

Additional observations from a re-analysis of the deposited data

How the results depend on the processing

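In every setting below the member medians and the difference of core and regulatory medians kept their direction, except that the difference for tolterodine against sham was 0.02 with flagged spots kept and 0.011 without tolterodine 2. For pBOO against sham, 15 members called became 6 with quantile scaling, 9 within scan 2 (with 1 sham array, whose own spread is unmeasured) and 4 with sham 3 and pBOO 3 both left out, and ran from 11 to 15 without single arrays. Its member median of -0.41 became -0.21 with quantile scaling and -0.19 relative to genes of the same class of level. For tolterodine against pBOO, 9 became 5 with quantile scaling and 3 with both arrays left out, and ran from 6 to 9 without single arrays. Its median of 0.27 became 0.35 with the scan as a random block and 0.16 relative to the class of level, and ran from 0.20 to 0.36 without single arrays. For tolterodine against sham, 2 became 1 with quantile scaling, 6 with the array median, 11 and 9 with the scan as a fixed and random block, 14 within scan 1 and 0 with both arrays left out, and ran from 0 to 6 without single arrays. Its median of -0.18 became -0.32 with the array median, where the median of all genes moved from 0.09 to -0.05, and ran from -0.22 to -0.10 without single arrays. The core minus regulatory difference of -0.08 became -0.22 with the scan as a fixed block and -0.22 within scan 1, and ran from -0.23 to 0.011 without single arrays. The causes were not tested beyond the smaller number of arrays in some settings. The counts in this paragraph are of members alone, and the share of all genes called also moved with the setting. They do not by themselves set the members apart from other genes. Over single members and settings, 1340 values kept their call or lack of one, 103 lost a call, 58 gained one, 67 without a call moved by over 1 SE, and none of these reversed a call.

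With the replicate number as a block, 13, 6 and 2 members were called in the same order of comparisons. These counts too are of members alone, without the share of all genes. The replicate numbers do not pair the arrays: the deviations of same-numbered arrays correlated between -0.0801 and 0.178, with 1 of 9 above 0.1.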

Other observations

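Among genes that feed the proteasome, the shuttle, extraction and ubiquitin activation genes that passed in pBOO all fell. The muscle ligases given below gave 2 that rose and 1 that fell, where 21.7% of all genes fell and 20.8% rose. Of 9 proteins that shuttle or extract ubiquitinated substrates, 3 fell in pBOO: Ubqln1, a shuttle factor, by 0.65 (adjusted p = 0.00519), Ufd1, a cofactor of the segregase Vcp, by 0.49 (adjusted p = 0.00947), and Nsfl1c, another cofactor, by 0.40 (adjusted p = 0.0142). With tolterodine Ubqln1 rose by 0.53 and Ufd1 by 0.37 over pBOO, while Ubqln2 fell by 0.36. Vcp itself changed by -0.17 in pBOO and did not pass (adjusted p = 0.352). Of the ubiquitin-activating enzymes, Uba6 fell by 0.33 (adjusted p = 0.0363) and Uba1 changed by -0.05 (adjusted p = 0.793). They are the 2 tested of 6 genes listed for ubiquitin and its activation, and with flagged spots kept 5 of 6 fell in pBOO, with a median of -0.58, and 3 rose with tolterodine. In that setting 22.9% of all genes fell in pBOO and 26.6% rose with tolterodine.

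Fbxo32 and Fbxo30, ligases known from wasting muscle, rose in pBOO. Fbxo32 stood at -6.59, -6.16 and -6.51 in sham, at -3.66, -4.04 and -3.87 in pBOO, and at -4.80, -4.88 and -5.11 with tolterodine. The 3 groups did not overlap. Its probe was well above background on 3 of 3 pBOO and 3 of 3 tolterodine arrays and on 0 of 3 sham arrays. It was at least 3.43-fold higher in pBOO than in sham, set against the lowest signal well above background on each sham array. The limma test of pBOO against sham used the measured sham values and not this bound (adjusted p = 1.63e-05). From pBOO to tolterodine Fbxo32 fell by 1.07 (adjusted p = 0.001). Fbxo30, a further muscle ligase, rose by 1.32 (adjusted p = 0.00048) and fell by 1.07, and Stub1, a ligase that works with chaperones, fell by 0.69 in pBOO (adjusted p = 0.00756). With quantile scaling the falls of Stub1 (-0.37, adjusted p = 0.0752) and Nsfl1c (-0.13, adjusted p = 0.336) did not pass. Of the 4 ligases listed, 3 were tested.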
